A study of Arabidopsis thaliana with 4 samples.

Results

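Messenger RNA of 6 genes that respond within minutes to touch and to many stresses was followed in rosette leaves of Arabidopsis thaliana. Earlier results of these data were known when the 6 genes were chosen. They were set by name and by their probe sets, the groups of short probes that read a transcript on an Affymetrix ATH1 array: ZAT12 (AT5G59820, probe set 247655_at), ZAT10 (AT1G27730, 261648_at), WRKY40 (AT1G80840, 261892_at), WRKY33 (AT2G38470, 267028_at), TCH4 (AT5G57560, 247925_at) and TCH3 (AT2G41100, 267083_at). These are 6 of the 22810 probe sets on the array, and the 6 loci carry these names in the RefSeq gene table of the TAIR10.1 assembly, where ZAT12 is listed as RHL41 and ZAT10 as STZ. All 6 passed the filter on low values, which kept 13648 probe sets.

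The study set wild-type plants against plants of the Columbia accession, Col-0, labelled AS12, in which the 35S promoter of cauliflower mosaic virus drives an antisense copy directed at AOX1a (At3g22370). AOX1a encodes alternative oxidase, which passes electrons from ubiquinol to oxygen in the inner mitochondrial membrane, and the 35S promoter is active in most cell types, so the construct is not restricted to a tissue. Both groups were grown under the same stated conditions, 23 °C with a photoperiod of 14 h at 350 µmol photons per m2 per s on unfertilised potting mix, and leaves of the third or the fourth pair were taken late in the morning of day 21 from sowing. There were 2 arrays per genotype, each of pooled RNA, from 7 plants for wild type 1, 9 for wild type 2, 9 for antisense 1 and 8 for antisense 2, and the antisense plants are given as a single line. The name of the wild-type accession is not in the labels, and neither the AOX1a transcript nor markers of leaf cells were checked here, because no table used here ties other probe sets to genes.

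Plants register touch, wind, wounding and handling within seconds through calcium and reactive oxygen signals, and a set of early genes rises and falls again within minutes to a few hours. Transcription factors make up much of this set. ZAT12 and ZAT10 are zinc finger proteins of the C2H2 type that respond to reactive oxygen, cold, high light and wounding. WRKY40 and WRKY33 belong to the WRKY family, which binds W-box sequences in defence genes. TCH3 and TCH4 were found as transcripts that increase after plants are touched; TCH3 is a calmodulin-like calcium sensor, and TCH4 a xyloglucan endotransglucosylase/hydrolase that remodels the cell wall. For this reason such genes are often read as a sign of what plants met just before sampling. The labels give the same harvest window for the 4 pools and no order of harvest within it, and the part of handling in the values below was not tested.

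The mRNA of all 6 genes read lowest in wild type 1, and 5 of the 6 read highest in antisense 1. Over all tested probe sets, 25.1% were lowest in wild type 1, 28.4% were highest in antisense 1 and 11.8% met both conditions. Mean log2 signals were higher in the antisense line for all 6 genes, by 1.79-fold to 3.99-fold, and for 44% of all tested probe sets. No difference passed the test over all probe sets. TCH4 alone had both antisense arrays above both wild-type arrays by more than 1.5-fold, against 0.528% of all tested probe sets. ZAT12, ZAT10 and WRKY40 instead placed wild type 2 and antisense 1 above wild type 1 and antisense 2. The share of all tested probe sets that did so was 27.9%, and 49.8% separated these arrays in either direction.

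Among the zinc finger factors, ZAT12 read 94.0 in wild type 1 and 247.9 in wild type 2, and 477.4 in antisense 1 and 155.8 in antisense 2, in linear signal units scaled by the authors. ZAT10 read 417.5 and 1908.6 in wild type 1 and 2, and 2812.0 and 1470.3 in antisense 1 and 2. For both genes the arrays had the same order, with wild type 1 lowest, then antisense 2, wild type 2 and antisense 1, so that the genotypes overlapped. The gap between the pools of a genotype was 2.64-fold for ZAT12 and 4.57-fold for ZAT10 in the wild type, with wild type 2 higher. In the antisense line it was 3.06-fold and 1.91-fold, with antisense 1 higher.

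The WRKY factors spanned the widest ranges of the 6 genes. WRKY40 read 100.4 in wild type 1, 498.1 in wild type 2, 1306.4 in antisense 1 and 296.6 in antisense 2. WRKY33 read 275.5, 849.3, 2870.9 and 918.1 in the same order of arrays. Antisense 1 stood 13.0-fold above wild type 1 for WRKY40 and 10.4-fold for WRKY33. WRKY40 had overlapping genotypes and the same order of arrays as the ZAT genes. For WRKY33 both antisense arrays lay above both wild-type arrays, but antisense 2 exceeded wild type 2 by only 1.08-fold. Wild type 2 exceeded wild type 1 by 4.96-fold for WRKY40 and 3.08-fold for WRKY33, and antisense 1 exceeded antisense 2 by 4.40-fold and 3.13-fold.

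The touch genes differed from each other in the antisense line. TCH4, the cell wall enzyme, read 261.6 in wild type 1, 467.7 in wild type 2, 1110.1 in antisense 1 and 1751.0 in antisense 2. It was the only one of the 6 genes that was highest in antisense 2, where it read 1.58-fold above antisense 1. TCH3, the calcium sensor, read 1678.5, 2711.6, 6277.8 and 3164.7 in the same order of arrays, with antisense 1 1.98-fold above antisense 2. Both genes had antisense arrays above wild-type arrays without overlap. The smallest of the 4 ratios, antisense array over wild-type array, was 2.37-fold for TCH4 and 1.17-fold for TCH3.

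**Figure D1:**
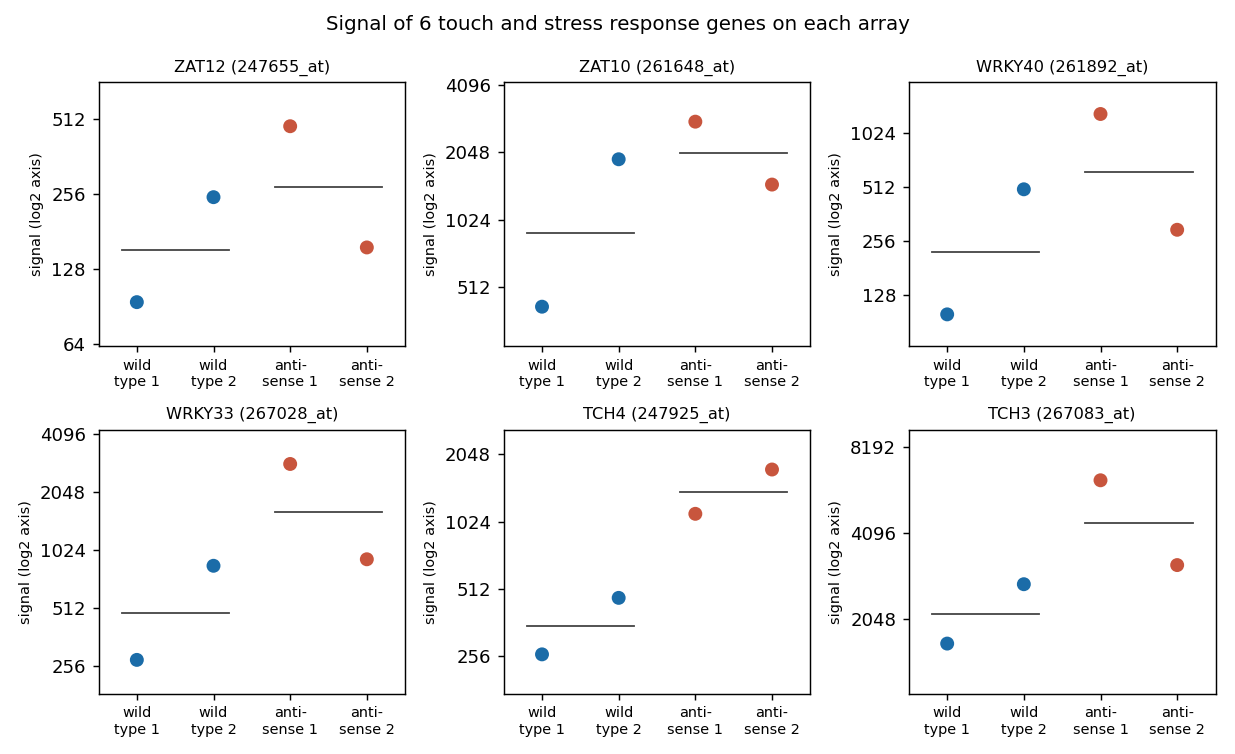
Signal of each gene (log2 axis, linear signal units) on the 4 arrays, 1 panel per gene; points are arrays, blue for wild type and red for the antisense line, and lines are the means of the log2 values of each genotype, with 2 arrays each. Wild type 1 is the lowest point in all 6 panels and antisense 1 the highest in 5, with TCH4 highest in antisense 2 at 1751.0.

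The comparison of genotypes asked whether these transcripts differed in leaves in which the antisense construct targets AOX1a. TCH4 had the largest difference, at 1431 ± 453 in the antisense line against 365 ± 146 in the wild type (mean signal, SD, n = 2). Log2 and fold differences were taken from mean log2 signals, so they differ somewhat from ratios of the mean signals. For TCH4 the difference was 1.99 ± 0.35 log2 units (SE), or 3.99-fold, with a 95% interval of 2.21-fold to 7.18-fold. Its unadjusted p of 0.0011 by limma was the 16th smallest of 13648, and the adjusted p was 0.94 after Benjamini-Hochberg adjustment. WRKY33 followed at 1894.5 ± 1381 against 562 ± 406 (SD, n = 2), 1.75 ± 0.68 log2 units (SE) or 3.36-fold. TCH3 read 4721 ± 2201 against 2195 ± 731 (SD, n = 2), 1.06 ± 0.38 log2 units (SE) or 2.09-fold. The unadjusted p by limma was 0.04 for WRKY33 and 0.029 for TCH3, and the adjusted p was 1.0 for each.

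The other 3 transcription factor genes had intervals that included no difference. WRKY40 averaged 801.5 ± 714 in the antisense line against 299 ± 281 in the wild type (SD, n = 2), a log2 difference of 1.48 with a 95% interval of -0.73 to 3.68. ZAT10 averaged 2141 ± 949 against 1163 ± 1054 (SD, n = 2), a log2 difference of 1.19 (interval -0.50 to 2.87). ZAT12 averaged 317 ± 227 against 171 ± 109 (SD, n = 2), a log2 difference of 0.84 (interval -0.71 to 2.39). For these 3 genes the single wild-type arrays lay further apart than the genotype means of 2 arrays. Wild type 2 was above wild type 1 by 2.31, 2.19 and 1.40 log2 units for WRKY40, ZAT10 and ZAT12. A gap between single arrays varies more than a gap between means of 2.

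Over the list, limma called 0 of the 6 genes at an adjusted p of 0.05, as it called 0% of all tested probe sets. At an unadjusted p of 0.05, TCH4, WRKY33 and TCH3 were higher in the antisense line by limma, 3 of 6, against 1.69% of all tested probe sets in that direction. The groups did not overlap for the same 3 genes, with the antisense line higher. Of all tested probe sets, 10.7% were so in that direction and 26.8% in either direction. TCH4 was the only one whose 4 array pairs all differed by 1.5-fold or more, 1 of 6, against 0.528% of all tested probe sets. At a 2-fold limit TCH4 remained, where 21 probe sets did in all (0.154%). The median log2 difference of the 6 genes was 1.33, against -0.03 over all tested probe sets. That median depended on single arrays: it was 0.52 without wild type 1, 0.64 without antisense 1, 1.66 without antisense 2 and 2.35 without wild type 2. The count at an unadjusted p of 0.05 by limma was 1 of 6 without wild type 1 and 1 without antisense 1, TCH4 in each case, and 6 without wild type 2 or without antisense 2. The share of all tested probe sets higher in the antisense line at that threshold was 0.938%, 1.72%, 2.11% and 4.79% in these 4 fits.

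**Figure D2:**
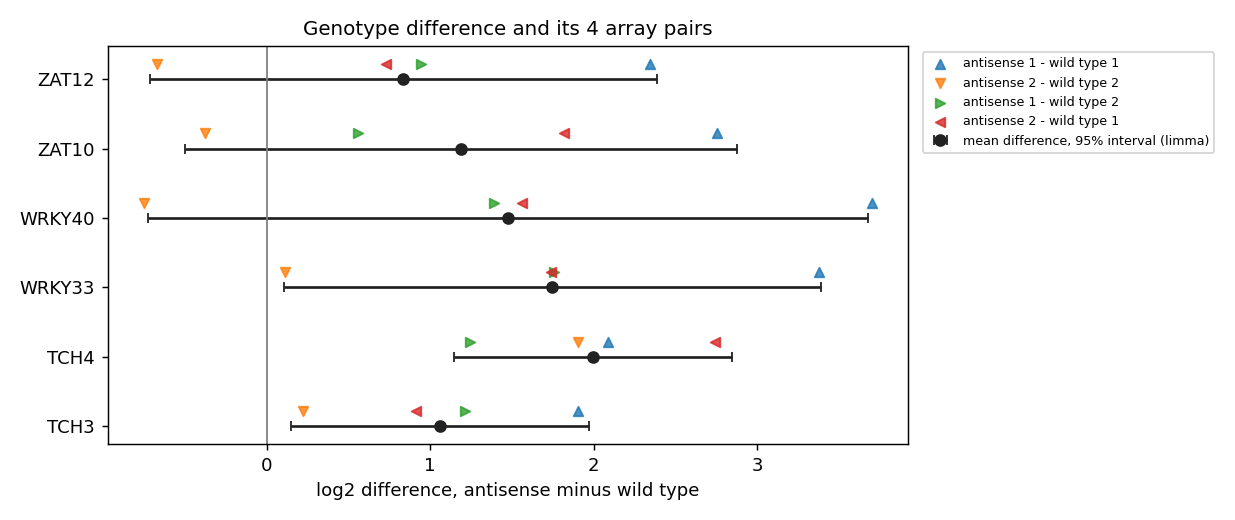
Log2 difference of the antisense line from the wild type for each gene; black points are means over 2 arrays a group with their 95% interval by limma, and coloured triangles are the 4 single pairs of arrays across the genotypes. The intervals of TCH4, WRKY33 and TCH3 lie above 0, and the pair of antisense 2 with wild type 2 lies below 0 for ZAT12, ZAT10 and WRKY40.

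Set array against array, antisense 1 read above wild type 2 for all 6 genes, by 1.47-fold (ZAT10) to 3.38-fold (WRKY33). Antisense 2 likewise read above wild type 1 for all 6, by 1.66-fold (ZAT12) to 6.69-fold (TCH4). These orders are not new results: wild type 1 was lowest for all 6 genes and antisense 1 highest for 5. The labels do not pair these arrays, and this pairing was taken from the same values. Both orders held together for 22.4% of all tested probe sets. With at least 1.5-fold in both, the count was 5 of 6, ZAT10 falling short, against 1.49% of all tested probe sets. All 6 genes had a range of at least 3-fold, as 2.31% of tested probe sets did, so this count is not a separate result. Antisense 1 also read above wild type 1 for all 6, by 3.74-fold (TCH3) to 13.0-fold (WRKY40), and for 50.1% of all tested probe sets. The 2 arrays numbered 2 gave no such order: antisense 2 was above wild type 2 for TCH4 (3.74-fold), TCH3 (1.17-fold) and WRKY33 (1.08-fold). It was below wild type 2 for ZAT12 (1.59-fold), ZAT10 (1.30-fold) and WRKY40 (1.68-fold).

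The 4 arrays can be divided 2 against 2 in 3 ways, and the other ways show how the same values fall when genotype is ignored. These divisions use the same arrays, and a gene with 4 different values separates the groups of exactly 1 of them. The counts of the 3 divisions are therefore not independent. Wild type 2 and antisense 1 were set against wild type 1 and antisense 2. ZAT12, ZAT10 and WRKY40 were without overlap, 3 of 6 with the former arrays higher. Of all tested probe sets, 27.9% were so in that direction and 49.8% in either direction. The log2 difference was 1.51 for ZAT12, 1.56 for ZAT10 and 2.22 for WRKY40. WRKY33 differed by 1.63 and TCH3 by 0.84 with overlapping groups, and TCH4 by 0.09. For ZAT12 and WRKY40 every pair of arrays across this division differed by 1.5-fold or more, 2 of 6, against 1.13% of all tested probe sets in that direction. The median over the 6 genes was 1.54 log2 units, against 0.04 over all tested probe sets.

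The division by array number separated 0 of the 6 genes. This count follows from the other divisions, since 3 genes separated the genotypes and the other 3 the crossed groups above. Of all tested probe sets, 23.3% were without overlap by array number in either direction. The log2 differences of number 2 from number 1 ran from -0.15 (TCH3) to 0.75 (TCH4), with 3 above and 3 below 0 and a median of 0.04. No p is given for the divisions that the labels do not make.

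**Figure D3:**
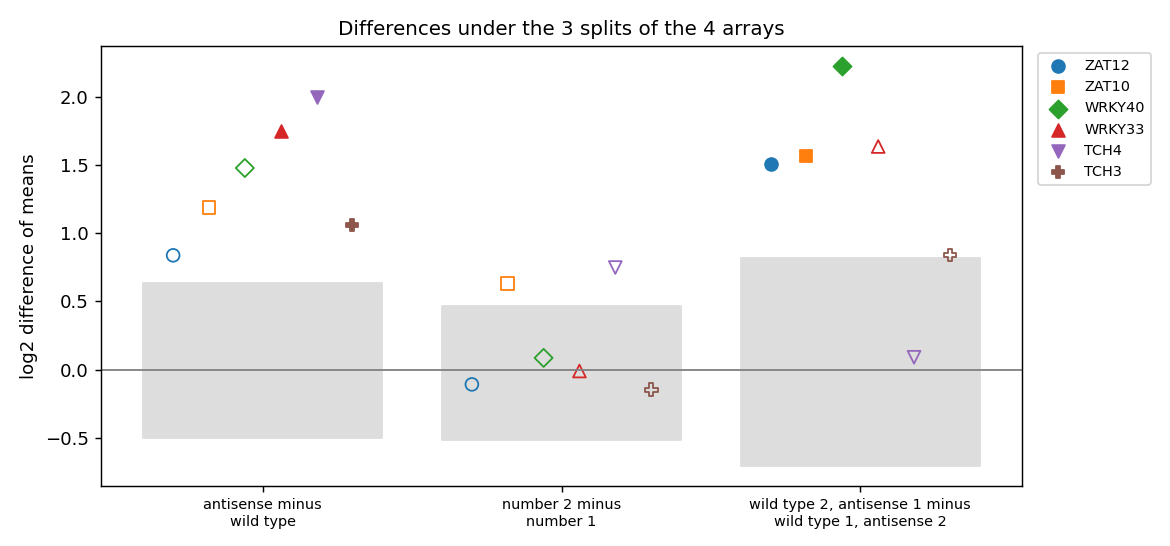
Difference of mean log2 signal for each gene under the 3 ways to divide the 4 arrays 2 against 2; filled symbols mark genes whose groups do not overlap, and grey bands hold the central 95% of all tested probe sets. TCH4, WRKY33 and TCH3 are filled for genotype, none for array number, and ZAT12, ZAT10 and WRKY40 for wild type 2 and antisense 1 against the rest.

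The pools of a single genotype lay far apart for these genes. Wild type 2 was at least 2-fold above wild type 1 for ZAT12, ZAT10, WRKY40 and WRKY33, 4 of 6, against 1.41% of all tested probe sets, and the ratio was 1.79-fold for TCH4 and 1.62-fold for TCH3. Antisense 1 was at least 2-fold above antisense 2 for ZAT12, WRKY40 and WRKY33, 3 of 6, against 3.32% of all tested probe sets. TCH4 went the other way, with antisense 2 1.58-fold above antisense 1. Counted in either direction, the shares at 2-fold were 2.46% for the wild-type pools and 4.45% for the antisense pools. The median log2 difference of the 6 genes was 1.51 between the wild-type pools and 1.30 between the antisense pools, each a gap between single arrays. It was 1.33 between the genotypes, a gap between means of 2 arrays, which varies less.

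The ratio of the highest to the lowest array was 13.0 for WRKY40, 10.4 for WRKY33, 6.74 for ZAT10, 6.69 for TCH4, 5.08 for ZAT12 and 3.74 for TCH3. All 6 thus spanned at least 3-fold, as 2.31% of all tested probe sets did, and the median tested probe set spanned 1.38-fold. WRKY40 had the 10th widest range of the 13648. The 6 probe sets for the 3' ends of actin, GAPDH and ubiquitin, which the array carries as controls, spanned 1.09-fold to 1.31-fold. Of the 315 tested probe sets with a range of at least 3-fold, 186 were lowest in wild type 1, and 162 of those were highest in antisense 1. The 186 include the 6 genes, so a lowest value in wild type 1 was common among probe sets of wide range.

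**Figure D4:**
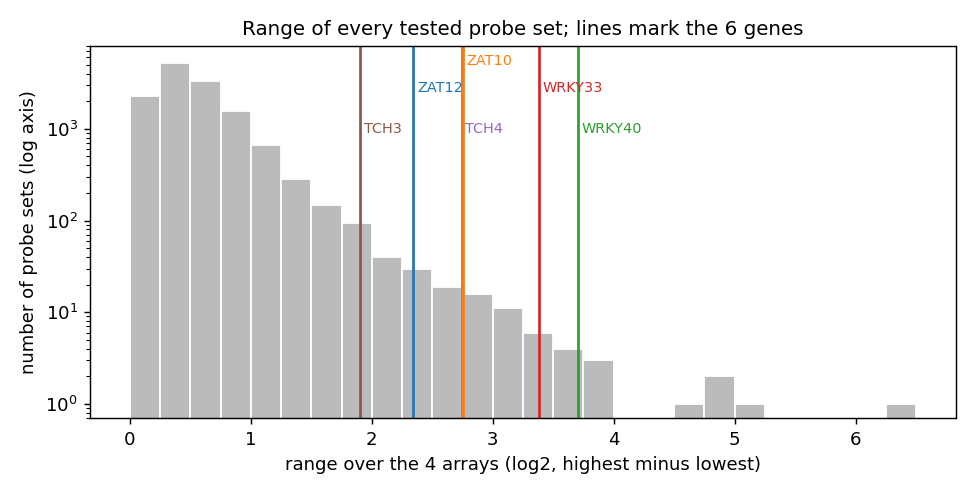
Number of tested probe sets (log axis) by their range over the 4 arrays in log2 units, in bins of 0.25; vertical lines mark the 6 genes, and those of ZAT10 and TCH4 nearly coincide. All 6 lie in the upper tail, from TCH3 at 1.90 to WRKY40 at 3.70.

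Likeness of pattern was measured as the root mean square distance between log2 profiles over the 4 arrays, each centred on its own mean, as a description with no p. WRKY40 and WRKY33 were the closest 2 of the 6 genes, at 0.33 log2 units, and 6 of 13647 probe sets, WRKY33 included, were at least that close to WRKY40. ZAT10 lay 0.41 from ZAT12 and 0.43 from WRKY33. ZAT12 was nearest to TCH3, at 0.35. TCH4 stood apart, from 0.75 (TCH3) to 1.15 (WRKY40) from the others, and 9553 probe sets were as close to it as WRKY40 was. The distance depends on the size of a change as well as on its pattern. A probe set with no change at all would lie 1.07 from TCH4, nearer than WRKY40. Outside the 6 genes, the nearest probe set lay 0.02 from TCH3 (264834_at) and 0.07 from WRKY40 (253643_at), and the nearest to the other 4 genes at 0.08 to 0.17. These probe sets are not paired with a gene in the tables used here.

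Some measures of the arrays moved with the values of these genes and others did not. The percent of probe sets called present was 55.5 in wild type 1, 55.9 in antisense 2, 56.2 in wild type 2 and 57.3 in antisense 1, the same order as ZAT12, ZAT10 and WRKY40. The ratio of 3' to 5' signal of ubiquitin, which rises as RNA degrades, was 4.68 in wild type 1 and 3.82 in antisense 2; wild type 2 had 3.16 and antisense 1 had 3.45. The ratios for GAPDH, at 1.66, 1.57, 1.47 and 1.72 in wild type 1, antisense 2, wild type 2 and antisense 1, and for actin, at 4.74, 4.11, 4.15 and 5.40, did not follow that division. With a second probe design for each of these transcripts there were 6 such ratios, of which 3 were higher in wild type 1 and antisense 2, 2 separated the array numbers and 1 the genotypes. Some of these gaps were small: in the second design, antisense 2 and antisense 1 read 3.37 and 3.31 for actin and 2.25 and 2.17 for ubiquitin. The authors' scale factor was 4.54 in wild type 1 and 4.34 in antisense 1, and 4.07 in wild type 2 and 4.18 in antisense 2. In the same order of arrays, background was 48.58, 47.93, 51.81 and 53.16, and noise was 1.84, 1.82, 1.91 and 1.94. Each of these measures separated the array numbers. The pools of fewer plants, 7 and 8, were those with the lower ZAT12, ZAT10 and WRKY40 signals. The part of these measures in the result was not tested. ZAT12 and WRKY40 were dim in wild type 1, where 39.1% and 40.2% of probe sets read no higher than they did, and whether they were called present there was not analysed here. In bulk leaf RNA, fewer cells with a transcript and less of it per cell cannot be told apart.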

How the data were processed

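Leaf RNA was pooled, labelled and hybridised to 4 ATH1 arrays, and the authors obtained signals with Affymetrix MicroArray Suite 5.0, per the labels' descriptions. The deposited values are linear signal intensities, 1 for each probe set on each array. The authors had scaled them: with the top and bottom 2% trimmed, each array averaged 500.05, which hides any change common to all transcripts. The authors' deposited quality sheet gives other values per array. Its column headed actin was read as ubiquitin, since it equals the ubiquitin ratio of the signal table.

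Signals were log2-transformed. The 64 control probe sets and the 40% of the rest with the lowest mean were left out, and 13648 were fitted with limma 3.58.1 in R 4.3.3 (lmFit, eBayes with a trend; 2 residual and 4.25 prior degrees of freedom), with Benjamini-Hochberg adjustment over all and a threshold of 0.05. This model was tested on simulated data with known changes. The number of arrays sets the precision: 95% intervals extended a median of 0.55 log2 units each way. With 2 against 2 arrays the smallest p of a two-sided exact permutation test is 0.333, and none was run. The p-values rest on the spread between pools of 1 growth experiment.

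The 6 genes, the lists and the tests were chosen with earlier results of these data known. All 6 genes are named whatever their values, and their probe sets were paired with genes by the definition of the set. For 85 other loci (touch, WRKY, C2H2 zinc finger, ERF and early signalling genes, AOX1a and cell type markers) no table used here gives probe sets, so they were not analysed here. Of the nearest probe sets by profile, 2 are printed. Alternatives were quantile, median and cyclic loess scaling, an offset of 8.1 (the 10th percentile), no low filter or a 60% filter, eBayes without a trend or robust, a replicate block and leaving out each array.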

Additional observations from a re-analysis of the deposited data

How the results depend on the processing

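limma called 0 of the 6 genes between the genotypes, and 0 under quantile, median and cyclic loess scaling, the log2 offset, no low filter, the 60% filter (which left out 1 gene, ZAT12), eBayes without a trend, robust eBayes, and without any single array (0 to 0), where a lone array is assumed to vary like the others. With the replicate number as a block the call count was also 0, and the lowest adjusted p of the 6 genes by limma was 0.55. The labels do not tie equal numbers together, and across probe sets the difference of wild type 1 from 2 correlated with that of antisense 1 from 2 at -0.42. A crossed pairing as a block (wild type 1 with antisense 2) was added after seeing the data for that reason. It called 3 of the 6 genes (WRKY33, WRKY40 and TCH3), all higher in the antisense line. In all it called 42 higher and 2 lower probe sets of 13648. The labels do not make this pairing and it was taken from the same values, so its calls are not a test of the genotypes. The lowest adjusted p over the other settings ran from 0.084 (TCH4 without antisense 1) to 1.0. All 6 differences kept their sign in every setting that tested them, down to 0.03 log2 units for ZAT12 without antisense 1. The median difference of 1.33 lay between 1.31 and 1.48 under the other settings and between 0.52 and 2.35 without 1 array. The order of the 4 arrays was the same for each gene under all 4 scaling and offset settings. In the division of wild type 2 and antisense 1 against the rest, the 2 genes at least 1.5-fold apart in all pairs became 1 under cyclic loess and 0 at a 2-fold limit; the latter is a stricter rule, and the cause of the former was not tested. The dim signals of ZAT12 and WRKY40 in wild type 1, and a design of 2 arrays per genotype, limit these values.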
